A study of Mus musculus with 28 samples.

Results

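Aldo-keto reductases are NADPH-dependent enzymes that turn aldehydes and ketones, among them sugars, steroids, and the reactive products of lipid peroxidation, into alcohols. Akr1b7, first known as an abundant protein of the mouse vas deferens and adrenal cortex, clears such lipid aldehydes and is a known target of the bile acid receptor FXR in mouse liver and intestine, and of the xenobiotic receptors PXR and CAR. Its relatives in the liver serve other substrates, from glucose in the polyol pathway to steroid hormones and bile acid precursors. The 8 genes described here are *Akr1b7*, its 3 relatives in the same gene cluster (*Akr1b3*, *Akr1b8*, and *Akr1b10*), *Akr1a1*, and 3 of the *Akr1c* genes (*Akr1c6*, *Akr1c13*, and *Akr1c19*). They were taken by gene symbol, with *Akr1b7* as the gene known to respond to bile acids and the other 7 for contrast, and all 8 were found among the 21935 genes of the counts table and were among the 12580 that passed the filter on low counts.

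The livers came from male B6.V-Lepob/JRj mice, which lack leptin and become obese, so all 3 groups share the leptin defect. The mice arrived at 5 weeks of age, spent 14 weeks on the AMLN diet, which is high in fat and cholesterol with added fructose, and remained on it while dosed by mouth each day for 2 weeks. The groups were vehicle (10 mice), OCA 30 mg/kg (9 mice), and INT-787 30 mg/kg (9 mice), with no lean or untreated mice among these 28. OCA, obeticholic acid, is a modified bile acid that activates FXR, and INT-787 is another FXR agonist. Liver messenger RNA was sequenced, and levels are CPM, the read counts of a gene relative to the size of its library, with library sizes scaled by TMM. Genes were tested with edgeR (quasi-likelihood), p-values were adjusted by Benjamini-Hochberg across the 12580 genes, and rose or fell is written where the adjusted p did not exceed 0.05. Both drug groups were compared with the same vehicle mice.

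Total counts ranged from 10990531 to 22421506 in the drug groups and from 9313260 to 18342272 in 9 vehicle mice, while vehicle replicate 6 had 1009593, at which 3 counts equal 2.76 CPM. In vehicle replicate 5, the 4 genes lying inside exons of an expressed gene of the opposite strand summed to 965 CPM, compared with 6.78 to 23.6 CPM in the other mice. OCA replicate 8 had the highest value of its group for 22.9% of the tested genes, compared with 6.51% to 11.9% for the other OCA mice, and the same share was 21.6% for INT-787 replicate 8 and 20.1% for vehicle replicate 10. The hepatocyte markers *Alb*, *Apoa1*, *Ttr*, *Serpina1c*, and *Hnf4a* summed to between 59820 and 194100 CPM over the 28 mice. *Akr1b7* is given below with and without vehicle replicates 5 and 6 and OCA replicate 8, a choice made after the data were seen.

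The *Akr1b* genes lie side by side on chromosome 6 (GRCm38, GENCODE M21), with *Akr1b3* at chr6:34302434-34317478 on the minus strand and *Akr1b8* (chr6:34354119-34368463), *Akr1b10* (chr6:34384218-34396950), and *Akr1b7* (chr6:34412334-34423142) on the plus strand. *Akr1c13* (chr13:4191150-4205596), *Akr1c19* (chr13:4228700-4252843), and *Akr1c6* (chr13:4434306-4457877) share a cluster on chromosome 13, and *Akr1a1* is at chr4:116636510-116651680. Bile acid receptors of this class bind repeats of the hexamer AGGTCA. RefSeq (GRCm38.p6) has a promoter for 7 of the 8 genes, and in the 250 bases before the start site AGGTCA, on either strand, was found in 2 of them, *Akr1b7* at position -248 and *Akr1b10* at position -215 from the start, against 14.03% of 32841 promoters of all genes. The inverted repeat AGGTCANTGACCT, which contains the hexamer, and its core GTCANTGAC were in 0 of the 7, and in 0.0061% and 0.320% of all promoters. The 200 bases from 250 to 51 before the start are shown for the 3 plus-strand neighbors, of which 1 rose, and for *Akr1d1* (chr6:37529923-37530122), the other family gene that differed in all 3 comparisons below, with AGGTCA or its reverse complement in capitals. The windows of the neighbors are at chr6:34412112-34412311, chr6:34353896-34354095, and chr6:34383997-34384196, in the order printed, all on the plus strand.
Akr1b7: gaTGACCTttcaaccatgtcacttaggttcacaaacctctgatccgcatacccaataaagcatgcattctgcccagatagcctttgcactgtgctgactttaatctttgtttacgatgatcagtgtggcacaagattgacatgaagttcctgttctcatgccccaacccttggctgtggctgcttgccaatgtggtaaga
Akr1b8: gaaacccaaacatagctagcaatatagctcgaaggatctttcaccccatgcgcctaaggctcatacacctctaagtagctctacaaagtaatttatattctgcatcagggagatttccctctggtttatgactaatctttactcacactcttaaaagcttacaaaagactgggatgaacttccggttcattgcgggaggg
Akr1b10: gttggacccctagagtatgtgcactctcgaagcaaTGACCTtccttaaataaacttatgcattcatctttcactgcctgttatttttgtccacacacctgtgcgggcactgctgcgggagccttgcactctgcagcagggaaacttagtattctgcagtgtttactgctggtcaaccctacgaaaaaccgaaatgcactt
Akr1d1: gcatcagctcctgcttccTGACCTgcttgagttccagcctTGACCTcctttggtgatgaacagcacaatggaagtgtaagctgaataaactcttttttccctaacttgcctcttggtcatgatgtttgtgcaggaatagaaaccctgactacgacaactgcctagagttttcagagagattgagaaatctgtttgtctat
*Akr1d1* held 2 matches, *Akr1b7* and *Akr1b10* 1 each, and *Akr1b8* none, so the hexamer was present in genes that rose and in a neighbor that was not called. *Akr7a5*, called in no comparison, held 1 at position -59, and *Akr1c19*, which rose, held none. These matches are letters in a window and were not tested for binding.

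*Akr1b7* rose with both drugs and rose more with INT-787 than with OCA. In the 10 vehicle mice it was at 0 to 1.10 CPM, with a median of 0.655. In the 9 OCA mice it was at 1.20 to 13.9 CPM, with a median of 3.52, and in the 9 INT-787 mice at 6.98 to 13.3 CPM, with a median of 11.1. Every mouse given a drug was above every vehicle mouse, although the gap between the lowest OCA mouse (1.20 CPM) and the highest vehicle mouse (1.10 CPM) was small, and the value of 0 in vehicle replicate 6 rests on a library in which 3 counts would be 2.76 CPM, above 4 of the 9 OCA mice. The INT-787 and OCA mice overlapped through OCA replicates 7 (7.17 CPM) and 8 (13.9 CPM), and the other 7 OCA mice, at or below 4.81 CPM, were all under the lowest INT-787 mouse. In bulk liver, more cells of a type and more RNA per cell cannot be told apart.

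The means were 0.657 ± 0.350 CPM with vehicle (SD, n = 10), 4.46 ± 4.01 with OCA (n = 9), and 10.9 ± 2.28 with INT-787 (n = 9). Against vehicle the log2 fold change of *Akr1b7* was 3.86 with INT-787 (SE 0.363, adjusted p = 1.4e-09), a 14.5-fold rise with a 95% interval from 8.70 to 24.3-fold. With OCA it was 2.58 (SE 0.369, adjusted p = 1.26e-05), a 6.00-fold rise with an interval from 3.56 to 10.1-fold. At the same dose and duration, INT-787 gave 2.42 times the level of OCA (log2 difference 1.28, SE 0.303, interval 0.66 to 1.89, adjusted p = 0.00989). By size of the rise *Akr1b7* ranked 6 of 12580 genes with INT-787 and also 6 with OCA, and 18 in the direct comparison of the drugs. Mice varied most in the OCA group, where the SD of log2(CPM + 1) was 0.886, compared with 0.299 with INT-787 and 0.337 with vehicle. Vehicle mice were at or below 1.10 CPM, where adding 1 narrows the spread, so their SD is not on an equal footing with those of the drugs.

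**Figure D1:**
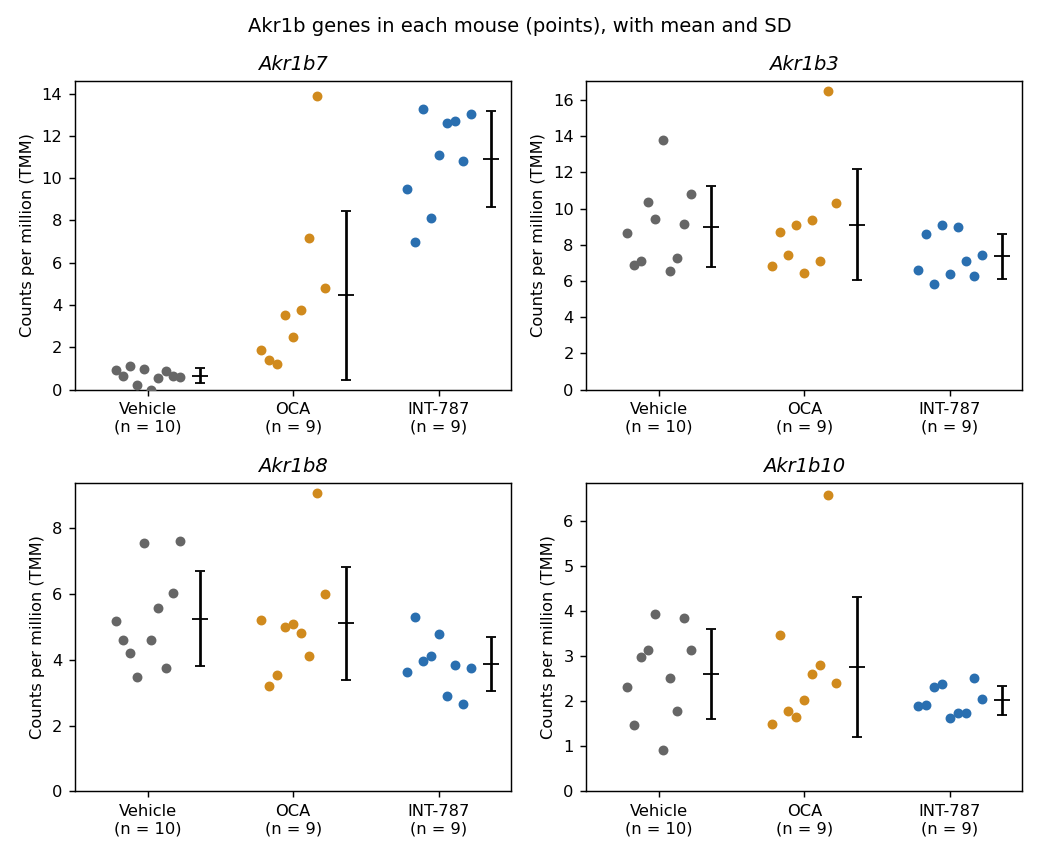
Level of the 4 *Akr1b* genes in each mouse (points), in TMM-scaled CPM on axes that start at 0, with the mean and SD of each group in black (vehicle n = 10, OCA n = 9, INT-787 n = 9). *Akr1b7* lies at or below 1.10 CPM with vehicle and at or above 6.98 with INT-787, whereas the groups overlap for *Akr1b3*, *Akr1b8*, and *Akr1b10*, and the highest OCA point in all 4 panels is replicate 8.

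OCA replicate 8 decided part of the size of the drug difference. Without it the log2 fold change of *Akr1b7* with OCA was 2.14 (adjusted p = 7.61e-06) and the difference between the drugs was 1.72 (adjusted p = 5.57e-05). With vehicle replicates 5 and 6 left out instead, the log2 fold changes were 3.88 with INT-787 and 2.60 with OCA. Exons of *Akr1b7* and of the pseudogene Gm13857 on the opposite strand overlap by 348 bases, so reads of the 2 cannot be told apart where strand is not kept, and vehicle replicate 5 was at 0.985 CPM, inside the range of the other vehicle mice. Of the 75-base windows of the *Akr1b7* transcripts, 5.30% were found also in Gm13857 and none in other genes.

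The 3 genes of the same cluster did not pass the test in any comparison. *Akr1b3*, aldose reductase, which makes sorbitol from glucose, was at 6.58 to 13.8 CPM with vehicle (median 8.90), 6.47 to 16.5 with OCA (median 8.68), and 5.81 to 9.11 with INT-787 (median 7.11), and the 3 groups overlapped. Its log2 fold change was -0.23 with INT-787 (interval -0.54 to 0.08, adjusted p = 0.317), 0.08 with OCA (interval -0.23 to 0.39, adjusted p = 0.869), and -0.31 between the drugs (interval -0.62 to 0.0047, adjusted p = 0.274). Of its 75-base windows 72.5% occur also in the pseudogenes Gm38056, Gm6644, Gm6736, or Gm12138, so its level depends on how reads with several matches were counted, which is not given in the sources used here.

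*Akr1b8*, a gene first described as induced by fibroblast growth factor, was at 3.46 to 7.59 CPM with vehicle (median 4.89), 3.20 to 9.06 with OCA (median 4.99), and 2.65 to 5.30 with INT-787 (median 3.85). Of the 9 INT-787 mice, 1 was above the vehicle median and 2 were below the lowest vehicle mouse. In the comparison of INT-787 with vehicle it was -0.44 on the log2 scale (interval -0.80 to -0.07, adjusted p = 0.0822), with OCA -0.04 (interval -0.40 to 0.31, adjusted p = 0.948), and between the drugs -0.39 (interval -0.76 to -0.03, adjusted p = 0.22). *Akr1b8* with INT-787 was called without OCA replicate 8 (-0.44, adjusted p = 0.0463), without INT-787 replicate 2 (-0.50, adjusted p = 0.0498), and with the animal number set as a factor (-0.48, adjusted p = 0.0474).

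*Akr1b10*, the weakest of the neighbors by level per length, was at 0.919 to 3.94 CPM with vehicle (median 2.75), 1.49 to 6.58 with OCA (median 2.40), and 1.63 to 2.51 with INT-787 (median 1.93). All 9 INT-787 mice lay inside the vehicle range and below the vehicle median. The log2 fold change was -0.43 with INT-787 (interval -0.90 to 0.04, adjusted p = 0.205), 0.04 with OCA (interval -0.43 to 0.50, adjusted p = 0.971), and -0.47 between the drugs (interval -0.94 to 0.0081, adjusted p = 0.275). *Akr1b8* and *Akr1b10* shared under 0.5% of their windows with each other.

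OCA replicate 8 was the highest OCA mouse for each of the 4 *Akr1b* genes, at 16.5 CPM for *Akr1b3* compared with at most 10.3 in the other OCA mice, 9.06 against 6.01 for *Akr1b8*, and 6.58 against 3.48 for *Akr1b10*. It was not the highest for *Akr1a1*, *Akr1c6*, *Akr1c13*, or *Akr1c19*. In the same mouse the cholangiocyte markers *Krt19*, *Krt7*, *Epcam*, *Sox9*, and *Spp1* summed to 1618 CPM, compared with 442 to 1072 in the other 8 OCA mice, and all 5 were highest there. The stellate cell markers summed to 1625 CPM against 635 to 1076, with 1 of 5 highest there (*Col1a1*, at 1122 CPM). The macrophage markers summed to 653 CPM against 272 to 582, with 2 of 5 highest there and *Clec4f* lowest of the group at 22.1 CPM. The adrenal cortex markers summed to 6.64 CPM against 1.26 to 3.72, with 3 of 5 highest there. Their part in the *Akr1b* values of this mouse was not tested.

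The part of the *Akr1b* expression that came from *Akr1b7* was higher in every drug mouse than in every vehicle mouse, and overlapped between the drugs. *Akr1b7* made up 0 to 7.14% of the summed CPM of the 4 genes with vehicle (median 4.02%), 8.50% to 33.8% with OCA (median 18.3%), and 30.6% to 52.4% with INT-787 (median 48.0%). The sum itself had medians of 17.2, 19.3, and 23.9 CPM. As a ratio within each mouse, log2 of the *Akr1b7* counts over the counts of *Akr1b3*, *Akr1b8*, and *Akr1b10* (0.5 added to each) averaged -4.61 ± 0.75 in vehicle mice (SD, n = 10), -2.27 ± 0.85 in OCA mice (n = 9), and -0.31 ± 0.45 in INT-787 mice (n = 9).

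This ratio is unaffected by how libraries are scaled. The ratio was chosen after the rise of *Akr1b7* was seen, so its values are given as a description. It was 4.30 higher with INT-787 than with vehicle on the log2 scale, 2.34 higher with OCA than with vehicle, and 1.97 higher with INT-787 than with OCA. All 9 mice of each drug lay above all vehicle mice, and INT-787 and OCA overlapped. With *Akr1b3* left out of the sum the 3 differences were 4.36, 2.34, and 2.02.

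**Figure D2:**
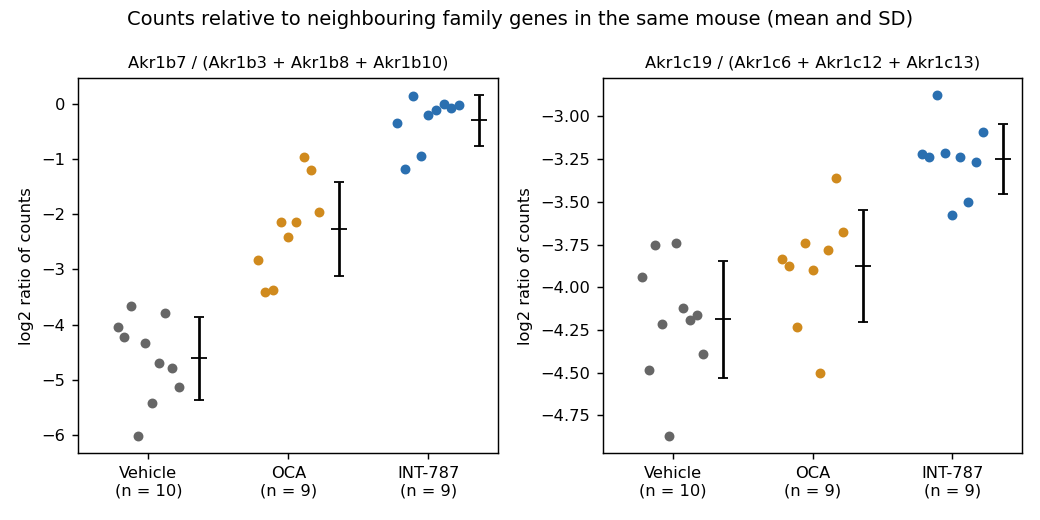
Log2 ratio of counts of *Akr1b7* (left) and *Akr1c19* (right) to the summed counts of 3 genes of the same cluster in the same mouse, by group, with the mean and SD in black. The left panel climbs from a mean of -4.61 with vehicle to -2.27 with OCA and -0.31 with INT-787, and in the right panel the INT-787 mice, at a mean of -3.25, lie above all vehicle mice.

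*Akr1a1*, the general aldehyde reductase that also makes the precursor of ascorbate from glucuronate in mice, was among the most expressed members and did not differ between groups beyond the test. It was at 377 to 620 CPM with vehicle (median 441), 361 to 453 with OCA (median 421), and 348 to 477 with INT-787 (median 419). The log2 fold change was -0.14 with INT-787 (interval -0.32 to 0.04, adjusted p = 0.28), -0.13 with OCA (interval -0.30 to 0.05, adjusted p = 0.493), and -0.02 between the drugs (interval -0.20 to 0.17, adjusted p = 0.966). The intervals are the narrowest of the 8 genes, so changes of the size seen for *Akr1b7* or *Akr1c19* lie outside them.

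Of the *Akr1c* members, *Akr1c19* rose with both drugs. It was at 22.4 to 42.9 CPM with vehicle (median 31.9), 33.8 to 57.5 with OCA (median 44.7), and 40.4 to 74.2 with INT-787 (median 51.0). All 9 mice of each drug group were above the vehicle median, and 6 of 9 with OCA and 6 of 9 with INT-787 were above the highest vehicle mouse, so the groups overlapped. The log2 fold change was 0.80 with INT-787 (SE 0.132, adjusted p = 3.56e-05), a 1.75-fold rise (interval 1.45 to 2.10), and 0.52 with OCA (SE 0.132, adjusted p = 0.012), a 1.43-fold rise (interval 1.19 to 1.73). Between the drugs it was 0.29 (interval 0.01 to 0.56, adjusted p = 0.233), which did not pass the threshold.

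Relative to its neighbors *Akr1c6*, *Akr1c12*, and *Akr1c13* in the same mouse, the log2 ratio of *Akr1c19* averaged -4.19 ± 0.34 with vehicle (SD, n = 10), -3.88 ± 0.33 with OCA (n = 9), and -3.25 ± 0.20 with INT-787 (n = 9). This ratio too was chosen after the rise of the gene was seen and is given as a description. It was 0.94 higher with INT-787 than with vehicle, with no overlap, 0.63 higher with INT-787 than with OCA, and 0.31 higher with OCA than with vehicle, the last 2 with overlap. *Akr1c6* made up a median of 84.6% of the neighbors' counts with vehicle, so this ratio moves with *Akr1c6*. With *Akr1c6* left out, the differences were 0.64 for INT-787 against vehicle, 0.36 for OCA against vehicle, and 0.29 for INT-787 against OCA. Of the windows of *Akr1c19*, 3.73% occur also in the pseudogene Marcksl1-ps4, which lies within it.

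*Akr1c6*, the 17-beta-hydroxysteroid dehydrogenase of mouse liver, was at 404 to 727 CPM with vehicle (median 459), 407 to 894 with OCA (median 554), and 309 to 558 with INT-787 (median 448). Only 1 of the 9 INT-787 mice was above the OCA median, and 3 were below the lowest OCA mouse. The log2 difference between the drugs was -0.44 (interval -0.73 to -0.14, unadjusted p = 0.00511) and did not pass after adjustment (edgeR adjusted p = 0.0724) unless OCA replicate 4 (-0.49) or INT-787 replicate 8 (-0.49) was left out, nor did the comparisons with vehicle, at -0.22 with INT-787 (interval -0.51 to 0.07, adjusted p = 0.292) and 0.21 with OCA (interval -0.07 to 0.50, adjusted p = 0.457).

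*Akr1c13* was at 39.1 to 58.0 CPM with vehicle (median 42.5), 45.5 to 69.6 with OCA (median 55.2), and 41.4 to 69.0 with INT-787 (median 49.6). All 9 OCA mice and 8 of 9 INT-787 mice were above the vehicle median, and 2 of each were above the highest vehicle mouse. The log2 fold changes, 0.22 with INT-787 (interval 0.02 to 0.42, adjusted p = 0.108) and 0.27 with OCA (interval 0.07 to 0.47, adjusted p = 0.104), did not pass, although without vehicle replicate 4 both did (0.27 and 0.32) and with the animal number set as a factor the value with INT-787 did (0.26), and between the drugs it was -0.05 (interval -0.25 to 0.16, adjusted p = 0.874). Since 17.3% of its windows occur also in *Akr1c12*, the 2 genes may share reads.

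**Figure D3:**
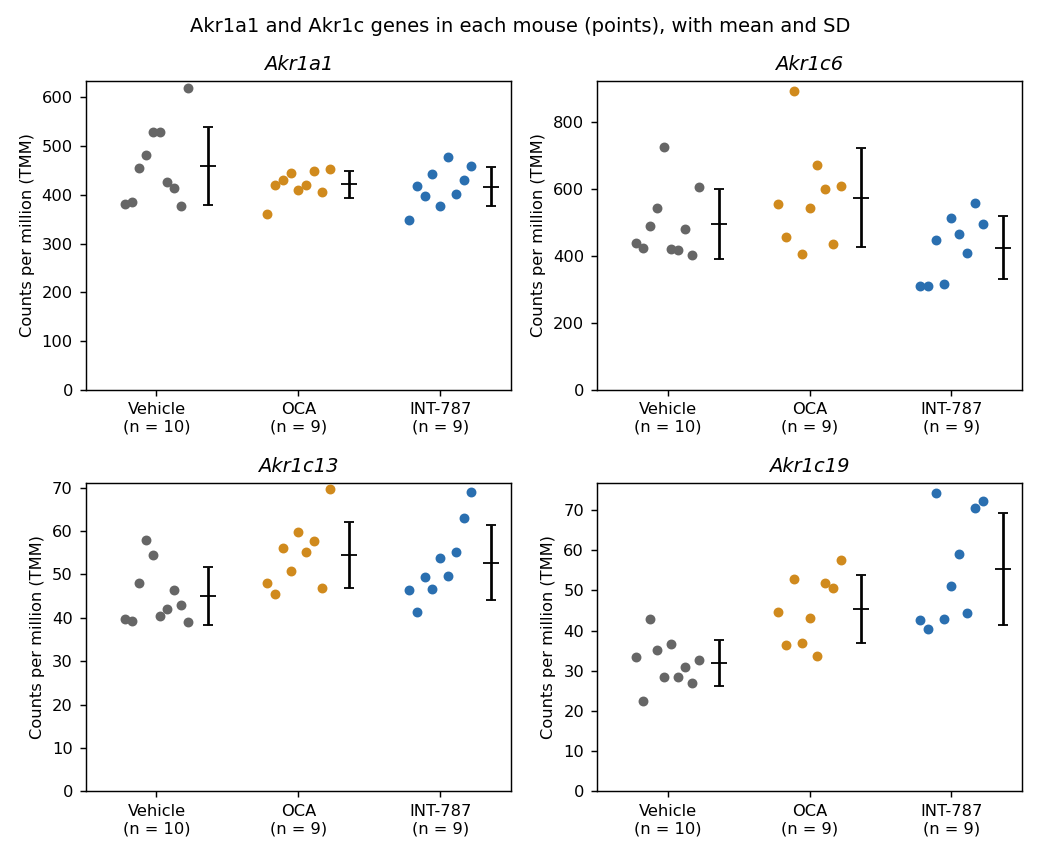
Level of *Akr1a1* and 3 *Akr1c* genes in each mouse (points), in TMM-scaled CPM on axes that start at 0, with the mean and SD of each group in black. *Akr1c19* rises from a vehicle median of 31.9 CPM to 44.7 with OCA and 51.0 with INT-787 with overlapping groups, and the other 3 genes overlap throughout.

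Counted together, 2 of the 8 genes were called with INT-787, both higher, where 19.6% of the tested genes were called (10.2% called higher), so the share of members called was near that of all genes. With OCA 2 were called, *Akr1b7* and *Akr1c19* as with INT-787, where 6.6% of the tested genes were called (4.15% higher). In the direct comparison 1 of 8 was called, *Akr1b7*, where 5.38% of the tested genes were called (2.19% higher with INT-787). None of the 8 fell by edgeR's test in any comparison, while at an unadjusted p under 0.05 the counts in either direction were 4, 3, and 4. The share of all tested genes at that unadjusted level is not given here, so these counts cannot be read as a result about the members. Groups without overlap and with the drug higher than vehicle were found for 1 of 8, *Akr1b7*, with each drug, compared with 1.79% of the tested genes with INT-787 and 0.604% with OCA, and for 0 of 8 with INT-787 above OCA (0.199% of tested genes). The median log2 fold change of the 8 genes was -0.18 for INT-787 against vehicle, 0.15 for OCA against vehicle, and -0.18 for INT-787 against OCA, beside medians of -0.0010, 0.02, and -0.0065 over all tested genes. With upper-quartile scaling the share of all calls that were higher went from 51.7% to 37.5% with INT-787 and from 62.9% to 52.3% with OCA, and the calls of *Akr1b7* and *Akr1c19* stayed.

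Levels between genes were compared per length, as CPM per kilobase of the principal transcript. With vehicle the order was *Akr1c6* (355 ± 74.2 CPM per kb, SD, n = 10), *Akr1a1* (324 ± 56.2), *Akr1c13* (35.7 ± 5.27), *Akr1b3* (6.49 ± 1.62), *Akr1c19* (5.46 ± 0.982), *Akr1b8* (3.87 ± 1.07), *Akr1b10* (1.90 ± 0.726), and *Akr1b7* (0.513 ± 0.273). Neighbors in this order overlapped between mice except *Akr1a1* and *Akr1c13*, and *Akr1c13* and *Akr1b3*. With OCA *Akr1b7* was the seventh of the 8 at 3.48 ± 3.13 CPM per kb, and with INT-787 the fifth at 8.51 ± 1.78, next to *Akr1c19* at 9.47 ± 2.40 and above *Akr1b3* at 5.32 ± 0.895, whose ranges it overlapped. Even then *Akr1b7* stayed well under *Akr1c6* (304 ± 67.6) and *Akr1a1* (294 ± 28.7).

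**Figure D4:**
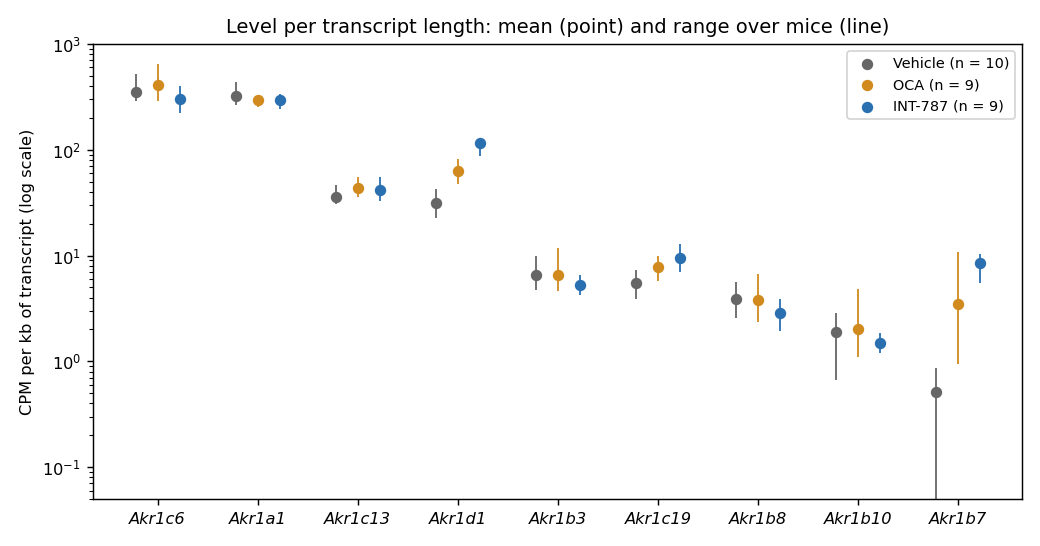
Level per length of the 8 genes and *Akr1d1*, as CPM per kilobase of the principal transcript on a log axis, with the mean (point) and the range over mice (line) for each group. *Akr1b7*, lowest of the 8 with vehicle at 0.513, moves to 8.51 with INT-787, and its vehicle line runs off the axis because 1 mouse had 0 counts.

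Of the 12 other aldo-keto reductase genes in the table, 8 were tested, and *Akr1d1*, the 5-beta-reductase of bile acid and steroid synthesis, changed most. It was at 60.8 to 115 CPM with vehicle (median 83.7), 127 to 222 with OCA (median 175), and 237 to 351 with INT-787 (median 313), with no overlap between any of the 3 groups. The log2 fold change of *Akr1d1* was 1.89 with INT-787 (SE 0.112, adjusted p = 9.53e-14), 1.01 with OCA (SE 0.110, adjusted p = 1.17e-07), and 0.88 between the drugs (SE 0.112, adjusted p = 6.21e-06). *Akr1e1* rose with INT-787 (log2 0.43, adjusted p = 0.00508) and *Kcnab2*, a potassium channel subunit of the same fold, fell with it (log2 -0.58, adjusted p = 0.0211), the latter not without vehicle replicate 9 (adjusted p = 0.0571), and neither was called with OCA or between the drugs, except *Akr1e1* with OCA without vehicle replicate 10 (adjusted p = 0.038) and with the replicate block (adjusted p = 0.0121). The other 5 (*Akr1c12*, *Akr1c14*, *Akr1c20*, *Akr7a5*, and *Kcnab1*) were not called, with log2 fold changes between -0.22 and 0.28. *Akr1c18*, *Akr1c21*, *Akr1cl*, and *Kcnab3* were too low to test, at no more than 1.12 CPM in any mouse.

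**Figure D5:**
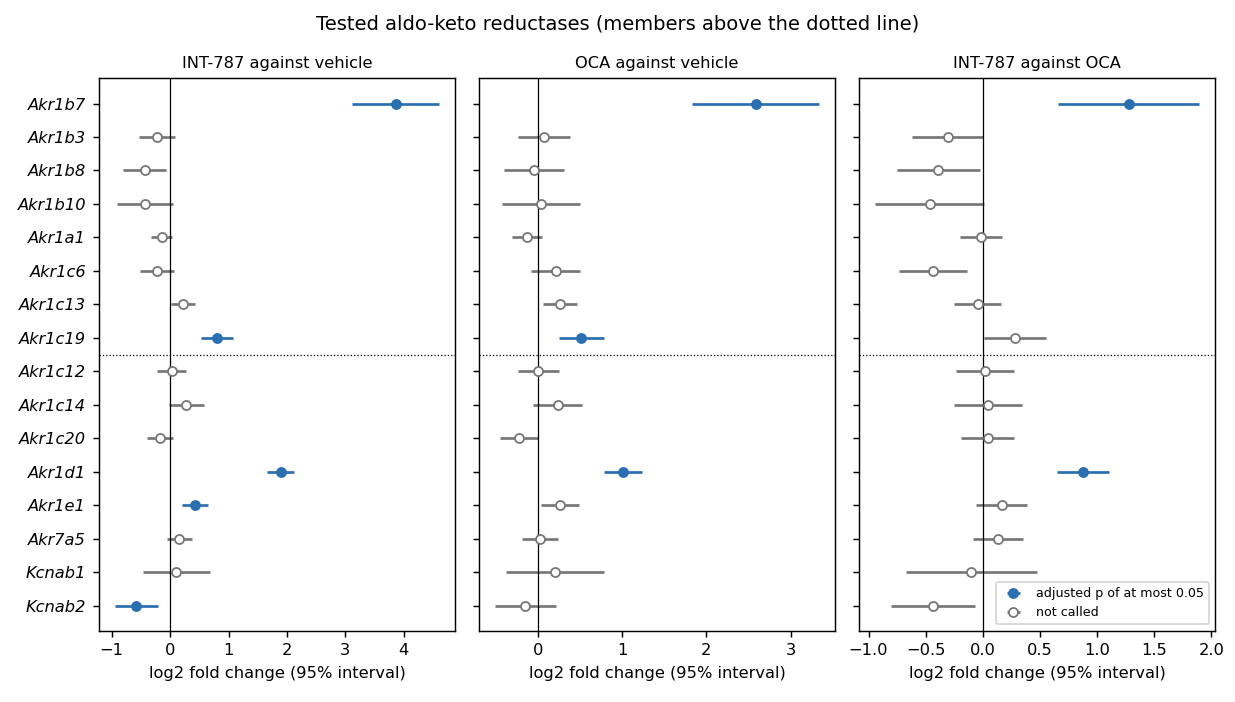
Log2 fold change (point) and 95% interval (line) of the 16 tested aldo-keto reductases in the 3 comparisons, with the 8 members above the dotted line and filled blue points for genes that were called. The axes of the 3 panels differ, and *Akr1b7*, at 3.86, 2.58, and 1.28, and *Akr1d1*, at 1.89, 1.01, and 0.88, are to the right of 0 in all 3.

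Akr1b3 feeds the polyol pathway, whose later enzymes also handle dietary fructose. Of 5 enzymes on a wider list of polyol and fructose metabolism, 3 rose with INT-787. These were *Glyctk* (log2 0.77, adjusted p = 6.62e-08), *Khk*, ketohexokinase (0.67), and *Dcxr* (0.66). With OCA 1 rose, *Glyctk* (0.54), while *Khk* (0.44, adjusted p = 0.0524) was called in 5 of 11 alternatives and 4 of the 28 fits without 1 mouse. None differed between the drugs by edgeR's test (0 of 5, with 2 at an unadjusted p under 0.05), although *Dcxr* (0.48, adjusted p = 0.0617) was called in 3 alternatives and 3 fits without 1 mouse. *Sord*, the enzyme next after *Akr1b3*, named after its values were seen, was not called, at means of 1030, 1143, and 1176 CPM.

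Other enzymes that clear aldehydes and carbonyls moved in both directions. Of 15, 6 rose and 3 fell with INT-787, 2 rose and 3 fell with OCA, and between the drugs 5 were higher and 1 lower with INT-787. Without 1 mouse the number called ranged from 3 to 6 with OCA (3 without OCA replicate 3 or 9) and from 3 to 7 between the drugs (3 without OCA replicate 1, 2, 5, or 6 or INT-787 replicate 8). *Gsta4*, which conjugates the lipid aldehyde 4-hydroxynonenal, was in the same group order as *Akr1b7*, at means of 99.5, 247, and 358 CPM with vehicle, OCA, and INT-787 (log2 1.84 and 1.30 against vehicle and 0.53 between the drugs, each called, the last lost in 5 of the 28 fits without 1 mouse). *Aldh3a2*, the fatty aldehyde dehydrogenase, fell with both, more with OCA (log2 -0.89) than with INT-787 (-0.42). *Cbr3* fell with both (-0.67 with INT-787 and -0.69 with OCA). Both calls of *Cbr3* were lost with the replicate block, and that with OCA also in 9 of the 28 fits without 1 mouse. *Ptgr1* fell with INT-787 (-0.68), and *Aldh1b1* rose with it (0.64).

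The receptors known to act on *Akr1b7* were read through lists of their targets, which were drawn up with earlier results of these data known. All 6 tested FXR targets changed with INT-787 and 5 of 6 with OCA. *Slc51b*, a bile acid exporter, rose by 3.31 and 2.68 on the log2 scale, *Abcb11*, the bile salt export pump, by 1.70 and 1.19, and *Nr0b2* (SHP) by 1.62 and 1.17, while the bile acid synthesis genes *Cyp7a1* (-2.28 and -2.54) and *Cyp8b1* (-4.28 and -4.11) fell. Between the drugs *Abcb11* was called (0.50, adjusted p = 0.0307), but not in 6 of the 28 fits without 1 mouse or in 1 of 11 alternatives. *Slc51b* was not called (0.63, adjusted p = 0.0517), but was in 7 of those 28 fits and in 6 of its 10 alternatives. The number of FXR targets called between the drugs ranged from 0 to 3 over the fits without 1 mouse. INT-787 replicate 4 had 44.1 CPM of *Cyp8b1*, compared with at most 3.67 in the other INT-787 mice, and without it *Cyp8b1* was at -6.22 with INT-787 and at -2.11 between the drugs (adjusted p = 0.0125).

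Of 7 PXR and CAR targets, 4 rose with INT-787 and 1 rose with OCA. *Cyp3a25* was at 1.16 with INT-787 and 0.68 with OCA. With INT-787 *Slco1a4* was at 1.15, *Cyp2c55* at 1.02, and *Cyp3a11* at 0.44, whose call was lost in 10 of the 28 fits without 1 mouse. With OCA the number called, in either direction, was 2 in all but 3 of 11 alternatives and in 4 of the 28 fits. *Slco1a4*, *Cyp2c55*, and *Cyp3a11* were not called with OCA in any of these fits, so the added call was of a target not named here, and its direction is not given. Between the drugs, 2 of the 7 were higher with INT-787 than with OCA, *Slco1a4* (0.87) and *Cyp3a25* (0.47). Of 7 LXR targets, *Abcg5* (0.82 and 0.74) and *Abcg8* (0.56 and 0.62) rose with both drugs, *Srebf1* with OCA (0.43), and *Abcg1* was lower with INT-787 than with OCA (-0.47). Of 7 targets of NRF2, which drives several aldo-keto reductases in oxidative stress, *Gclm* rose with both (0.59 and 0.44), *Nqo1* rose with INT-787 (0.55), and *Hmox1* (-0.43 and -0.41) and *Srxn1* (-0.36 and -0.45) fell with both, the call of *Hmox1* with OCA being lost in 10 of the 28 fits without 1 mouse. Of the 6 receptor genes themselves, only *Nr1i2* (PXR) was called, higher with INT-787 (0.58, adjusted p = 0.00711).

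The 5 genes with the pattern over the 28 mice most like that of *Akr1b7*, among 9354 genes with a mean of at least 5 CPM, were *Ccnd1* (Pearson r = 0.935 of log2(CPM + 1)), *Fyb2* (0.934), *Tmprss4* (0.902), *Ass1* (0.902), and *Slc51b* (0.901). These are descriptions over mice of 3 groups that differ, so groups and mice both enter. For deviations from the group means r was 0.636, 0.670, 0.326, 0.474, and 0.505 in the same order, and without OCA replicate 8 it was 0.657, 0.525, 0.031, 0.501, and 0.434. Among the members, r of the deviations with *Akr1b7* was highest for *Akr1b10* (0.537) and *Akr1b8* (0.434), and without OCA replicate 8 these were 0.254 and 0.161, *Akr1b3* went from 0.234 to -0.227, and the highest member was *Akr1c13* at 0.395.

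Markers of tissues other than liver were examined, the adrenal cortex and intestine among them because they are known for *Akr1b7*. Of 5 adrenal cortex markers, *Star*, *Cyp11a1*, *Cyp11b1*, and *Hsd3b1* were under 1 CPM in every mouse and *Cyp11b1* at 0, and *Cyp21a1* fell with both drugs, from a mean of 5.59 CPM to 2.62 and 0.650, the opposite direction to *Akr1b7*, while within the OCA group it was highest in OCA replicate 8, at 5.96 CPM, as *Akr1b7* was. The intestinal marker *Cdx2* was under 1 CPM in every mouse, while the other 4, which include *Apoa4* and *Fabp2*, both also made by liver, brought the sum of the list to 7359 to 20638 CPM and were not called in any comparison (edgeR, at most 1 of 4 at an unadjusted p under 0.05). Kidney markers were under 1 CPM in every mouse, 4 of 4, and of the pancreas markers 4 of 5 were, with *Cela1* at means of 13.96, 12.48, and 9.90 CPM and lower with INT-787 than with vehicle (log2 -0.46).

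Markers of other liver cells were read in the same way. The stellate cell markers summed to 655 to 1135 CPM with vehicle, 635 to 1625 with OCA, and 317 to 610 with INT-787, and 4 of 5 fell with INT-787. Of the macrophage markers 2 of 5 fell with INT-787, and the sums were 359 to 535 CPM with vehicle, 272 to 653 with OCA, and 259 to 536 with INT-787. Of the cholangiocyte markers 1 of 5 fell, with sums of 482 to 798, 442 to 1618, and 336 to 537 CPM, and of the endothelial markers 2 of 4 fell, with sums of 112 to 253, 108 to 174, and 81.8 to 186 CPM. Of the hepatocyte markers 1 of 5, *Alb*, rose with both drugs, and the sums were 59820 to 134400 CPM with vehicle, 103390 to 194100 with OCA, and 92618 to 163570 with INT-787. Some markers were also lower with INT-787 than with OCA. These were 2 of 5 stellate cell markers (*Col1a1* and *Acta2*) and 1 of 5 each for macrophages (*Cd68*), cholangiocytes (*Spp1*), and hepatocytes (*Serpina1c*). No endothelial marker was called between the drugs, and none of the 5 lists had a marker that was higher with INT-787. The part of these shifts in the values of the 8 genes was not tested.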

How the data were processed

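The authors prepared stranded libraries from liver messenger RNA, aligned the reads to GRCm38 (Ensembl annotation) with STAR, and deposited raw counts per Ensembl gene, 1 column per mouse. The counting program, its use of strand, and its handling of reads with several matches are not given in the sources used here. Of 21935 genes, 21858 matched a symbol in GENCODE M21, and 4615 had 0 counts in every mouse. Groups came from the labels.

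Counts were filtered with filterByExpr, normalized by TMM, and tested with edgeR 4.0.16 (glmQLFit, glmQLFTest, R 4.3.3) in 1 model of the 3 groups without covariates. Alternatives used DESeq2 1.42.0, the tool of the authors, limma 3.58.1, other scalings and filters, a replicate block, and each of the 28 mice left out. The tests were tried on simulated data. Ratios of counts within a mouse are given as descriptions. The members and gene lists were chosen with earlier results of these data known. A gene of the polyol and fructose list is not reported here. From each other list except those of cell and tissue markers, genes called in any comparison were named, at most the 5 with the largest change. Calls in the marker lists are given mainly as counts, with some of the genes named. Replicates were separate mice, and over all pairs of the 28 libraries the smallest chi-square per gene was 3.00 (vehicle 3 and vehicle 6), so no pair agreed within sampling noise. Counts of 0 are subject to counting error. The intervals of the fold changes come from the edgeR quasi-likelihood fit, so they include variation between mice as well as counting error.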

Additional observations from a re-analysis of the deposited data

Results flagged for a closer look

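On the CPM scale, replicate 8 of the OCA group stood apart from the other 8 mice for all 4 *Akr1b* genes, with a gap to the next mouse that was large for the range of the group. *Akr1b7* was at 13.9 CPM in this mouse and at 7.17 in the next, *Akr1b3* at 16.5 and 10.3, *Akr1b8* at 9.06 and 6.01, and *Akr1b10* at 6.58 and 3.48. The gap took 53.0%, 61.7%, 52.1%, and 60.8% of the range, where Dixon's limit for 9 mice is 49.3%. That limit is for normally distributed values. The gaps were measured on CPM and not on a log scale, on which a high value stands out less. No mouse stood apart by this measure for *Akr1a1*, *Akr1c6*, *Akr1c13*, or *Akr1c19*, or in the vehicle and INT-787 groups. Of 24 groups examined, chance alone would be expected to mark about 1 in 20 if the values were normally distributed. The 4 values are of 1 mouse and so are not independent.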

How the results depend on the processing

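*Akr1b7* was called in all 3 comparisons in each of the 10 alternatives that tested it and in each of the 28 fits without 1 mouse. Over the alternatives its log2 fold change ranged from 3.78 to 3.904 with INT-787, 2.16 to 2.61 with OCA, and 1.23 to 1.72 between the drugs. *Akr1c19* kept its calls against vehicle in the same fits. Requiring at least 10 counts in every mouse removed *Akr1b7* from the test, and 1, 1, and 0 members were then called. With the animal number set as a factor 4 members were called with INT-787, with *Akr1b8* (-0.48) and *Akr1c13* (0.26) added. The cause was not tested. Without vehicle replicates 5 and 6 and OCA replicate 8, a setting chosen after seeing the data, 429 genes differed between the drugs in place of 677. The depth of vehicle replicate 6 limits what can be said of low genes there.

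The log2 values that changed sign were all of genes with no call in that comparison, with adjusted p-values over 0.5. *Akr1c12* was at -0.035 (upper-quartile scaling) and -0.0026 (at least 10 counts) for INT-787 against vehicle. For OCA against vehicle *Akr1c12* was at -0.010 with DESeq2 size factors and -0.010 with DESeq2, -0.024 with upper-quartile scaling, -0.0021 with voom, -0.0092 with only the groups compared, and -0.031 with the animal number set. For INT-787 against OCA *Akr1c12* was at -0.011, -0.0034, and -0.0062 with upper-quartile scaling, at least 10 counts, and the 3 libraries left out. For OCA against vehicle *Akr7a5* was at -0.0064 with upper-quartile scaling, *Cyp3a11* at -0.012 and *Nqo1* at -0.011 with the animal number set, *Akr1b8* at 0.020 without vehicle replicates 5 and 6, and *Akr1b3* at -0.021, *Akr1b10* at -0.19, and *Kcnab1* at -0.043 without the 3 libraries. For INT-787 against OCA *Cbr3* was at -0.025 with upper-quartile scaling and -0.021 with at least 10 counts, *Akr1c13* at 0.0034 with the animal number set, and *Kcnab1* at 0.024 with voom. Without the 3 libraries *Kcnab1* was at 0.067, *Akr1c14* at -0.041, and *Akr1c20* at -0.013.

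With 1 mouse left out at a time, the members called between the drugs ranged from 1 to 2 and the genes called from 443, without OCA replicate 8, to 888. Ranges that crossed 0 for OCA against vehicle were -0.23 to 0.12 for *Akr1b10*, -0.077 to 0.13 for *Akr1b3*, -0.19 to 0.025 for *Akr1b8*, -0.053 to 0.064 for *Akr1c12*, -0.014 to 0.073 for *Akr7a5*, and -0.042 to 0.20 for *Cyp3a11*. For INT-787 against OCA they were -0.041 to 0.015 for *Akr1a1*, -0.043 to 0.081 for *Akr1c12*, -0.085 to 0.0062 for *Akr1c13*, -0.041 to 0.14 for *Akr1c14*, -0.013 to 0.094 for *Akr1c20*, -0.21 to 0.067 for *Kcnab1*, -0.095 to 0.22 for *Cbr3*, -2.11 to 0.48 for *Cyp8b1*, -0.14 to 0.0011 for *Abcg8*, and -0.086 to 0.062 for *Hmox1*. For INT-787 against vehicle *Akr1c12* ranged from -0.035 to 0.083.

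The replicate numbers were tried as a block, although mice share only the number (r of deviations from the group means -0.24 to 0.43, over 0.1 for 11 of 27 pairs). For the animal number sets r was over 0.1 for 13 of 25 pairs (median 0.105), and for other pairs of mice of different groups for 52 of 234 (median 0.0037). With the replicate block 2417, 868, and 677 genes and 2, 2, and 1 members were called, the log2 fold change of *Akr1b7* was 3.89, 2.37, and 1.52, and *Akr1b8* for OCA against vehicle was at 0.048. The block ended the calls of *Cbr3* with both drugs (adjusted p = 0.0535 and 0.0706) and of *Hmox1* with OCA.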
